A study of Nymphaea colorata and Nymphaea micrantha with 16 samples.

Results

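The 3 genes described here, NC7G0247280, NC10G0032970 and NC10G0232730, are those that the carbon fixation figure of the study labels RuBP carboxylase. They were chosen by that label, and they are 3 of the 31475 genes in the deposited expression table. The study drew in that figure genes that differed between the species in these same libraries, so a difference between the species in the members is no independent evidence of one. Leaf RNA was sequenced from the viviparous water lily *N. micrantha* (X-species), which forms plantlets on its leaves, and from the nonviviparous *N. colorata* (L-species), both as wild-type plants. Stage 1 leaves were rolled, submerged and 1 to 2 cm long, and stage 2 leaves were still rolled and submerged at 4 to 6 cm. Stage 3 was the point at which a still partly rolled leaf reached the surface, and stage 4 was the open leaf, on which a viviparous mark was seen in the X-species alone. The groups are written X1 to X4 and L1 to L4, with 2 libraries in each of the 8 groups and 16 libraries in all. Each sample was a pool of leaves from several plants, and no source used here says which libraries of a group came from separate plants, so p-values measure the spread between these libraries.

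RuBP carboxylase (Rubisco) joins carbon dioxide to ribulose bisphosphate, the entry step of the Calvin cycle in the chloroplast stroma, and its competing reaction with oxygen starts photorespiration. In land plants the enzyme is built from a large catalytic subunit, usually encoded in the plastid genome, and a small subunit, encoded in the nucleus by a small family of closely related genes and light-responsive in many plants. Rubisco transcripts are commonly among the most abundant in green leaves. The label in the figure does not say which subunit, or which other carboxylase-related protein, each of these IDs encodes. The study's gene ontology table lists NC7G0247280 and NC10G0232730 under ribulose-bisphosphate carboxylase activity, and NC7G0247280 also under chloroplast stroma and under responses to red, blue and far-red light. NC10G0032970 was not found in the part of that table read here. No sequence or position is given, because no genome or protein table matched these IDs.

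Expression is given as FPKM, the reads on a gene set against its length and the library's total, so that levels of different genes can be set beside each other. The values turned out to be whole reads, and 24815135 to 31440253 reads were counted on genes in an X-species library, against 37118842 to 51396582 in an L-species library. The tissue was checked against 10 photosystem genes of a green leaf. Of these, 9 were above 0 in every library and 6 had at least 10 FPKM in every library, while the PsbO gene NC1G0065180 was at 0 in all X-species libraries and at most 1.05 FPKM in the L-species. The summed level of the 10 genes was 1605 to 7397 FPKM in the X-species and 994 to 3949 FPKM in the L-species. In bulk leaf RNA, fewer cells of a type and less RNA per cell cannot be told apart.

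The 3 genes differed in level by orders of magnitude, and NC7G0247280 made up nearly the whole of the family in both species. It held 99.2% to 100.0% of the family's FPKM in the X-species libraries (median 99.6%) and 92.3% to 99.7% in the L-species libraries (median 99.4%). NC10G0032970 held 0.0295% to 0.767% in the X-species and 0.221% to 6.74% in the L-species. NC10G0232730 had no reads in the X-species and 0.110% to 0.914% of the family's FPKM in the L-species. The summed FPKM of the family therefore followed NC7G0247280.

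**Figure D1:**
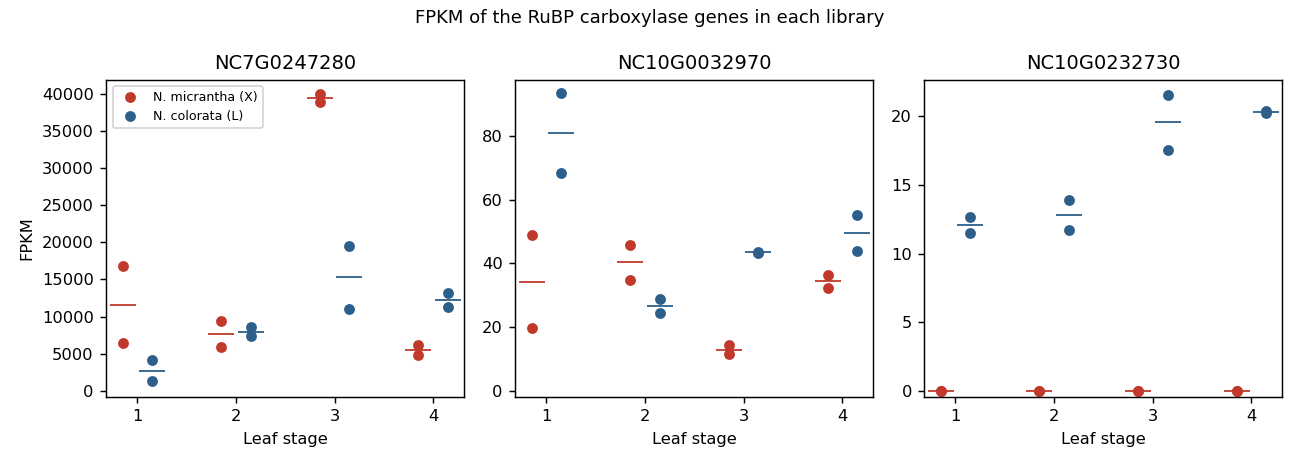
FPKM (linear axis, with its own range in each panel) of the 3 RuBP carboxylase genes by stage, 1 point per library and a line at each group mean, with X-species points left of L-species points at each stage. NC7G0247280 is highest in X3, at 38950 and 39955 FPKM, NC10G0032970 is lowest in X3, at 11.5 and 14.4 FPKM, and NC10G0232730 is at 0 in all 8 X-species libraries.

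NC7G0247280 was highest at stage 3 in the X-species, where its level was above that of every other library. It had 6447 and 16777 FPKM in X1, 5916 and 9374 FPKM in X2, 38950 and 39955 FPKM in X3 and 6134 and 4816 FPKM in X4. In the L-species it had 4177 and 1282 FPKM in L1, 7352 and 8565 FPKM in L2, 19521 and 11087 FPKM in L3 and 13168 and 11311 FPKM in L4. The X-species profile was a single high stage with lower levels on both sides, while the L-species profile was low at stage 1 and higher later. Stage 3 had the highest group mean in the L-species as well, but L3 overlapped with L4. Between 59392 and 1190611 reads of a library lay on the gene, 0.513% to 4.26% of the counted reads in the X-species and 0.137% to 2.08% in the L-species. It had the highest FPKM of all genes in both libraries of X3, L2, L3 and L4, and in the first X3 library it was 2.21 times the highest other gene. Its place among the genes was 1 to 5 in the X-species libraries and 1 to 33 in the L-species libraries.

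Ordered by group mean, NC7G0247280 had 39452 ± 711 FPKM in X3 (SD, n = 2, as for all groups), 15304 ± 5963 in L3, 12240 ± 1313 in L4, 11612 ± 7304 in X1, 7958 ± 857 in L2, 7645 ± 2445 in X2, 5475 ± 932 in X4 and 2730 ± 2047 in L1. The libraries of X3 did not overlap with those of L3, and those of X4 did not overlap with those of L1. All other neighbours in this order overlapped. The stage 1 libraries varied most, with a ratio of 2.60 between the second and the first X1 library and of 0.307 between the second and the first L1 library. The photosystem genes moved with this spread: their summed level was 4434 and 7397 FPKM in the first and second X1 library and 2212 and 994 FPKM in the first and second L1 library. In the second library, 8 of the 10 were higher than in the first in X1 and 3 of the 10 in L1. The part of leaf makeup in the level of NC7G0247280 was not tested.

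Differences were tested with limma on log2(FPKM + 1) in 1 fit of all libraries over 18160 genes, with Benjamini-Hochberg adjustment, and a gene is said to pass at an adjusted p under 0.05 where the groups also differ by 1 or more on the log2 scale. All 3 members passed the filter on low values, which asked for 2 or more libraries at an FPKM of 1 or above. NC10G0232730 did so through the L-species only, so its difference between the species was fixed by the filter and it is left out of the counts of genes that passed. A positive fold change means higher in the X-species than in the L-species, or higher at the later than at the earlier stage. A difference between groups of 2 libraries had an SE of 0.71 for NC7G0247280, against a median of 0.22 over the tested genes. The SD between its replicates on the log2 scale was larger than that of 97.6% of the tested genes, and larger than that of 91.6% of the 1043 genes with a mean of at least 100 FPKM.

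Between the species, NC7G0247280 was higher in X1 than in L1, with a log2 fold change of 2.17 (SE 0.71, limma adjusted p = 0.0238), and all X1 libraries lay above all L1 libraries. At stage 1 NC7G0247280 passed as higher and NC10G0032970 as lower in the X-species, while 28% of all tested genes passed. The result at stage 1 for NC7G0247280 rested on single libraries: the log2 fold change was 1.32 without the second L1 library (adjusted p = 0.220) and 1.48 without the second X1 library (adjusted p = 0.160). At stage 2 the log2 fold change was -0.09 with a 95% interval of -1.63 to 1.45, and the libraries overlapped. At stage 3 the levels did not overlap, but the log2 fold change of 1.42 had an interval of -0.12 to 2.96 and did not pass (adjusted p = 0.114). At stage 4 the X-species libraries lay below the L-species libraries, with a log2 fold change of -1.17 and an interval of -2.71 to 0.37 (adjusted p = 0.183). With the variance not tied to expression level, a setting chosen after seeing the data, the stage 3 difference passed (adjusted p = 0.0402).

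Within the X-species, NC7G0247280 rose in X3 relative to X2 by a log2 fold change of 2.41 (adjusted p = 0.0302) and fell in X4 relative to X3, with a log2 fold change of -2.86 (adjusted p = 0.0101). Of all tested genes, 11.5% passed between X3 and X2 and 14% between X4 and X3. The first call was lost without the first X2 library (2.07, adjusted p = 0.108) and without either X3 library (adjusted p = 0.121 and 0.123), and the second without either X3 library (adjusted p = 0.0514 and 0.0579) or the second X4 library (-2.68, adjusted p = 0.0731). Both were also lost in fits of only the libraries compared. X2 against X1 gave -0.48 and X4 against X1 gave -0.94, neither of which passed. Within the L-species it rose in L4 relative to L1, with a log2 fold change of 2.40 (adjusted p = 0.0114), beside 35% of all tested genes, and this was lost without the second L1 library (1.55, adjusted p = 0.126) or the first L4 library (2.29, adjusted p = 0.0635). The single steps from stage to stage did not pass, with 1.78 for L2 against L1, 0.89 for L3 against L2 and -0.27 for L4 against L3. Tested directly, the difference between the species changed between stages 1 and 4, with an interaction of -3.33 (SE 1.00, limma adjusted p = 0.0237), beside 24.9% of all tested genes. Without the second L1 library it was -2.48 (adjusted p = 0.102) and without the second X1 library -2.64 (adjusted p = 0.0770), and the call was also lost without any one of the X4 or L4 libraries. The photosystem genes moved the same way. Their summed level was 4434 to 7397 FPKM in X1 against 994 to 2212 FPKM in L1, and 1605 to 1894 FPKM in X4 against 2983 to 3949 FPKM in L4. Of the 9 tested photosystem genes, 7 reached the filter on low values within each species, as did 15250 genes in all. For the same interaction 6 of the 7 passed as lower and 0 as higher, with a median of -2.64. Of the 15250 genes, 9.41% passed as lower and 14.3% as higher. NC9G0272490 and NC9G0272520, of which 1 passed as higher, reached the filter through the L-species only and are left out. The part of leaf makeup in the change of NC7G0247280 was not tested. The change between stages 3 and 4 was -2.59 and did not pass (adjusted p = 0.0857). Those between stages 1 and 2 (-2.26, limma adjusted p = 0.337) and between stages 2 and 3 (1.51, limma adjusted p = 0.443) did not pass either. Without the filter on low values, when more genes are tested and the SE of the gene is 1.30, none of these differences of NC7G0247280 passed.

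**Figure D2:**
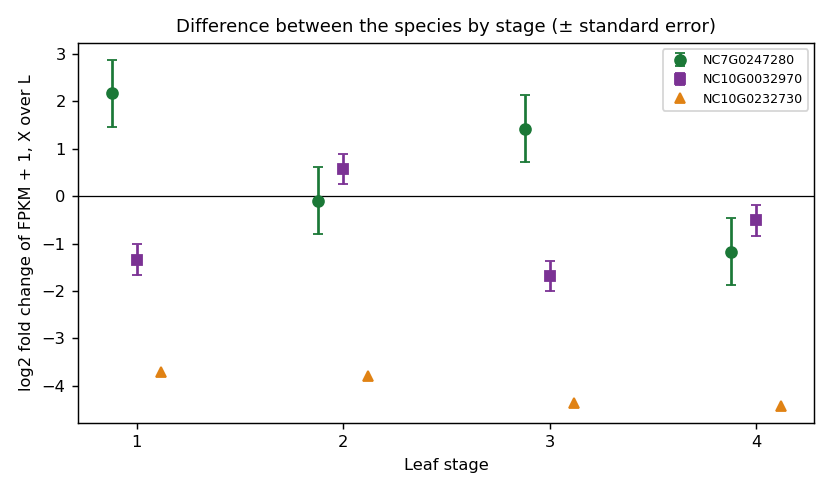
Log2 fold change, X-species over L-species, of the 3 genes at each stage on the log2(FPKM + 1) scale; bars are standard errors from limma in each direction, and NC10G0232730 is drawn without bars. NC7G0247280 runs from 2.17 at stage 1 to -1.17 at stage 4, NC10G0032970 is at -1.34 and -1.68 at stages 1 and 3, and the values of NC10G0232730 rest on 0 reads in the X-species.

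NC10G0032970 was a gene of moderate level, and it was lowest where NC7G0247280 was highest. It had 48.8 and 19.7 FPKM in X1, 45.7 and 34.9 FPKM in X2, 11.5 and 14.4 FPKM in X3 and 32.4 and 36.4 FPKM in X4. In the L-species it had 68.4 and 93.6 FPKM in L1, 24.4 and 28.9 FPKM in L2, 43.2 and 43.7 FPKM in L3 and 55.2 and 43.9 FPKM in L4. X3 was the low group of the X-species and L1 the high group of the L-species. Behind these values stood 355 to 1576 reads in an X-species library and 1217 to 4385 reads in an L-species library.

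By group mean the order was L1 at 81.0 ± 17.9 FPKM, L4 at 49.5 ± 7.95, L3 at 43.5 ± 0.363, X2 at 40.3 ± 7.65, X4 at 34.4 ± 2.87, X1 at 34.3 ± 20.6, L2 at 26.6 ± 3.18 and X3 at 12.9 ± 2.07. The libraries of L1, L4 and L3 did not overlap with those of the next group down, except that L3 overlapped with X2. X2, X4 and X1 each overlapped with the next, and X3 lay below L2 without overlap.

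NC10G0032970 was lower in X1 than in L1 (log2 fold change -1.34, SE 0.33, limma adjusted p = 0.00507) and lower in X3 than in L3 (-1.68, adjusted p = 0.00111). Without the second X1 library the stage 1 value was -0.70 and no longer reached the fold threshold, and without the second L1 library it was -1.11 (adjusted p = 0.0544). The value at stage 3 passed with each library left out in turn, with a range of -1.83 to -1.53. At stage 2 the X2 libraries were above the L2 libraries, but the log2 fold change of 0.57 (interval -0.14 to 1.28) did not pass. At stage 4 it was -0.51 (interval -1.22 to 0.20) and did not pass, although X4 lay below L4. At stage 3, 28.8% of all tested genes passed. At stages 2 and 4 neither NC10G0032970 nor NC7G0247280 passed, while 25.3% and 31.3% of all tested genes did.

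Along the stages, NC10G0032970 fell in X3 relative to X2 (log2 fold change -1.56, adjusted p = 0.00529) and rose in X4 relative to X3 (1.35, adjusted p = 0.00895). Without the first X3 library both calls were lost (-1.41, adjusted p = 0.0528, and 1.20, adjusted p = 0.0694), and the second was also lost without the second X4 library (1.27, adjusted p = 0.0606). In a fit of only the libraries compared, X3 against X2 did not pass (adjusted p = 0.0671). These are the same steps at which NC7G0247280 changed, each in the opposite direction. In the L-species it fell in L2 relative to L1 (-1.56, adjusted p = 0.0306), where 1.89% of all tested genes passed. This value lost its call without the second L1 library (-1.33, adjusted p = 0.277) and without either L2 library, and it just missed the threshold without any one of the X3 or X4 libraries (adjusted p of 0.0512 to 0.0514). L3 against L2 gave 0.69 and L4 against L1 gave -0.69, and neither passed. The difference between the species changed between stages 2 and 3, with an interaction of -2.25 (SE 0.46, limma adjusted p = 0.0253), beside 2.74% of all tested genes. That call was lost with voom on the recovered reads (-2.35, adjusted p = 0.0594) and without any one of the libraries of X3, L2 or L3, at -2.10 to -2.41.

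**Figure D3:**
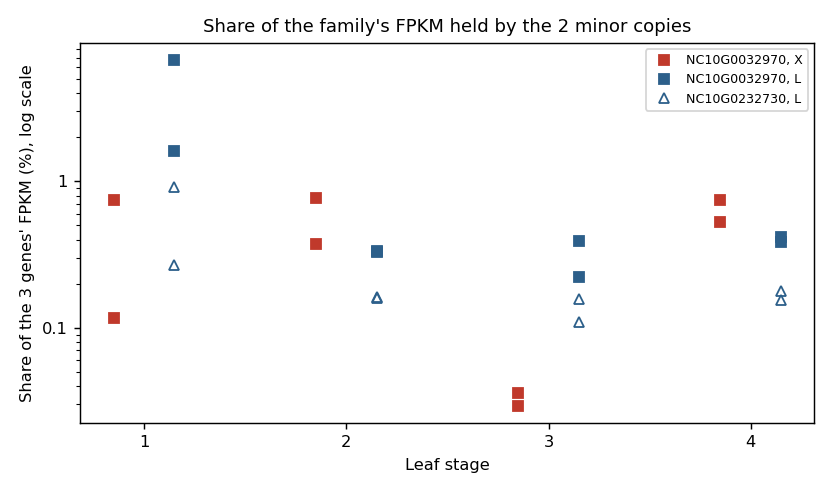
Share of the family's FPKM (percent, log axis) held by NC10G0032970 and NC10G0232730, 1 point per library, with X-species points left of L-species points. NC10G0032970 is at 0.0295% and 0.0360% in X3 and at 1.61% and 6.74% in L1, and NC10G0232730 has a share in the L-species only.

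The share of the family held by NC10G0032970 widened this contrast. It was 0.752% and 0.117% in X1, 0.767% and 0.371% in X2, 0.0295% and 0.0360% in X3 and 0.525% and 0.750% in X4. In the L-species it was 1.61% and 6.74% in L1, 0.330% and 0.335% in L2, 0.221% and 0.392% in L3 and 0.417% and 0.386% in L4. X3 stood lowest and L1 highest, without overlap with any other group. Set as a ratio, NC7G0247280 had 3392 and 2774 times the FPKM of NC10G0032970 in X3, against 452 and 254 times in L3. In X1 the ratio was 132 and 852, against 61.1 and 13.7 in L1. The 2 genes ran against each other over the 16 libraries, with Pearson's r of -0.78 on the log2 scale, -0.94 within the 8 X-species libraries and -0.60 within the 8 L-species libraries. The points share their library totals, which NC7G0247280 itself takes up to 4.26% of.

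NC10G0232730, the shortest of the 3 at 489 bases, had reads in the L-species only. It had 0 reads in each of the 8 X-species libraries. In the L-species it had 11.5 and 12.7 FPKM in L1, 11.7 and 13.9 FPKM in L2, 21.6 and 17.6 FPKM in L3 and 20.4 and 20.3 FPKM in L4. These are 266 to 449 reads in a library and 2723 reads in all. At the lowest of these FPKM values an X-species library would have held 140 to 177 reads on the gene. A limit of 3 reads per library was taken as what a count of 0 allows, which covers counting error only. Against the L-species mean of the same stage, the gene was then at least 48.9-fold lower in X1, 60.7-fold in X2, 88.2-fold in X3 and 88.5-fold in X4. Against the lower L-species library of each stage, these bounds were 46.5-fold, 55.6-fold, 79.2-fold and 88.2-fold.

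The limma fit gave NC10G0232730 log2 fold changes of -3.71, -3.78, -4.36 and -4.41 at stages 1 to 4. These depend on the pseudocount and are no bound, and no p is given for them, since the gene entered the fit through the L-species alone and the X-species libraries have no spread. Averaged over the stages the fitted value was -4.07 for NC10G0232730, -0.74 for NC10G0032970 (adjusted p = 0.00145, under the fold threshold) and 0.58 for NC7G0247280 (adjusted p = 0.159), and neither of the last 2 passed, beside 24.1% of all tested genes. Along the L-species stages NC10G0232730 was higher late than early: L4 against L1 gave 0.70 and L3 against L2 gave 0.57, both under the fold threshold. L4 and L3 overlapped, L2 and L1 overlapped, and both late groups lay above both early ones.

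The genes with at least 10 FPKM in every library of 1 species give the background for such a count of 0. Of the 6613 genes with at least 10 FPKM in every L-species library, 21 (0.318%), among them NC10G0232730, had 0 reads in all X-species libraries. Of the 6139 genes with at least 10 FPKM in every X-species library, 0 had 0 reads in all L-species libraries. The table uses 1 set of gene IDs for both species, and whether X-species reads matched them as well as L-species reads was not tested, so a count of 0 is a count of reads and not of transcripts. The study reports cleaned reads in overlapping ranges for both species. The reads counted on genes did not overlap, with 24815135 to 31440253 in an X-species library and 37118842 to 51396582 in an L-species library. The same limit holds for the differences of NC7G0247280 and NC10G0032970 between the species. Reads of closely related copies could also have been divided among them or left uncounted.

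The gene ontology table lists a further gene, NC3G0206580, under ribulose-bisphosphate carboxylase activity, and it was close to the 3-read limit in the X-species libraries only. It had 0 to 0.651 FPKM in the X-species (0 to 14 reads) and 1.07 to 4.04 FPKM in the L-species (40 to 180 reads), without overlap. It too passed the filter on low values through the L-species only, so no test of its difference between the species is given here or counted in a list, and at such levels a fold change of FPKM + 1 is set largely by the pseudocount. Adding it to the family left the share of NC7G0247280 at a mean of 99.6% in the X-species and 98.4% in the L-species.

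The other Calvin cycle genes of the same figure, 9 in all, were set beside the 3 carboxylase genes. For 2 of the 9 the direction of a call between the species was fixed by the filter, and counts and medians of the 9 include them. NC1G0182030 reached the filter through the X-species only and gave 1 of the higher calls at each of stages 1, 2 and 3. NC2G0285280 had reads in L4 only and gave 1 of the lower calls at stage 4. The counts of 7 genes further below leave both out. At stage 1, 5 of the 9 passed as higher in the X-species and 0 as lower, with a median log2 fold change of 1.20 beside -0.23 over all tested genes, of which 7.56% passed as higher (9.55% with the libraries scaled by median ratios) and 20.4% as lower. At stage 3, 5 were higher and 0 lower, with a median of 1.21 beside -0.30 over all tested genes, of which 6.57% passed as higher (9.56% under that scaling) and 22.2% as lower. At stage 4, 0 were higher and 4 lower, with a median of -0.74 beside 0.00, and 19% of all tested genes passed as lower and 12.3% as higher. At stage 2, 3 were higher and 2 lower, with a median of 0.32, beside 6.18% of all tested genes passing as higher and 19.1% as lower, and the counts were 3 and 0 under that scaling. The counts at stages 1, 3 and 4 were the same under it, and those at stage 1 also without the second X1 or the second L1 library. Of the 9, 7 reached the filter on low values within each species, as did 15250 genes in all. Of the 7, 4 passed as higher at stage 1, beside 6.47% of the 15250 genes, and 4 at stage 3, beside 5.34%. At stage 2 the same 7 gave 2 in each direction, beside 4.92% of the 15250 genes as higher and 14.2% as lower. At stage 4 they gave 3 lower, beside 13.6%. The median log2 fold changes of the 7 were 1.46, 0.32, 1.21 and -0.74 at stages 1 to 4. Over the 15250 genes these were -0.17, -0.13, -0.25 and 0.07. Within the X-species, 3 of the 9 rose in X3 relative to X2, beside 4.95% of all tested genes, and 4 fell in X4 relative to X3, beside 5.23%. In the L-species 6 rose in L4 relative to L1, beside 15.3% of all tested genes (18.0% under median-ratio scaling). Of the 7, 3 rose in X3 relative to X2, beside 5.52% of the 15250 genes, and 3 fell in X4 relative to X3, beside 5.86%. In L4 relative to L1, 5 of the 7 rose, beside 15.8%. The further fall was that of NC1G0182030, which reached the filter through X1 to X3 only. The further rise was that of NC2G0285280, which had reads in L4 only. The direction of both changes was fixed by the filter. The figure's genes were picked by the study on these libraries, so these counts are no independent evidence of direction.

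The genes closest in pattern to NC7G0247280, by Pearson's r of log2(FPKM + 1) over the 16 libraries, were NC11G0120850 (r = 0.947), NC1G0182350 (r = 0.933) and NC9G0172230 (r = 0.930). The study lists NC11G0120850 under the reductive pentose-phosphate cycle. It had 423 and 430 FPKM in X3 and 317 and 193 FPKM in L3, and 143 and 113 FPKM in X4 and 366 and 297 FPKM in L4. Of the 9 Calvin cycle genes, the SBPase gene NC6G0041510, which encodes an enzyme of the regeneration of ribulose bisphosphate, stood 6th at r = 0.919, and the dehydrogenase gene NC9G0173330 stood 14th at r = 0.903. Over the 16 libraries the rest of the 9 had r of at most 0.556 and stood between places 711 and 4632. Such values take in the difference between the species. Within the X-species r was 0.963 for NC2G0054460, 0.934 for SBPase and 0.953 for NC9G0173330. Within the L-species these were 0.885, 0.937 and 0.906. The others of the 9 had r of -0.088 to 0.685 within the X-species, where NC2G0285280 had no reads, and of -0.774 to 0.905 within the L-species. SBPase had 279 and 310 FPKM in X3 and 165 and 97.5 FPKM in L3, and 142 and 92.6 FPKM in X4 and 173 and 212 FPKM in L4. It passed as higher in X1 (log2 fold change 1.99, adjusted p = 0.00323) and X3 (1.21, adjusted p = 0.0422). The genes closest to NC10G0032970 were NC2G0004490 (r = 0.894), NC4G0030430 (r = 0.876) and NC6G0041630 (r = 0.867), whereas NC7G0247280 was in place 18144 of its list. Those closest to NC10G0232730 were NC6G0156030 (r = 0.998), NC2G0294300 (r = 0.997) and NC13G0307450 (r = 0.997), whose X-species levels were at most 0.140 FPKM. For a gene at 0 in 1 species, such a correlation mainly restates the difference between the species.

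**Figure D4:**
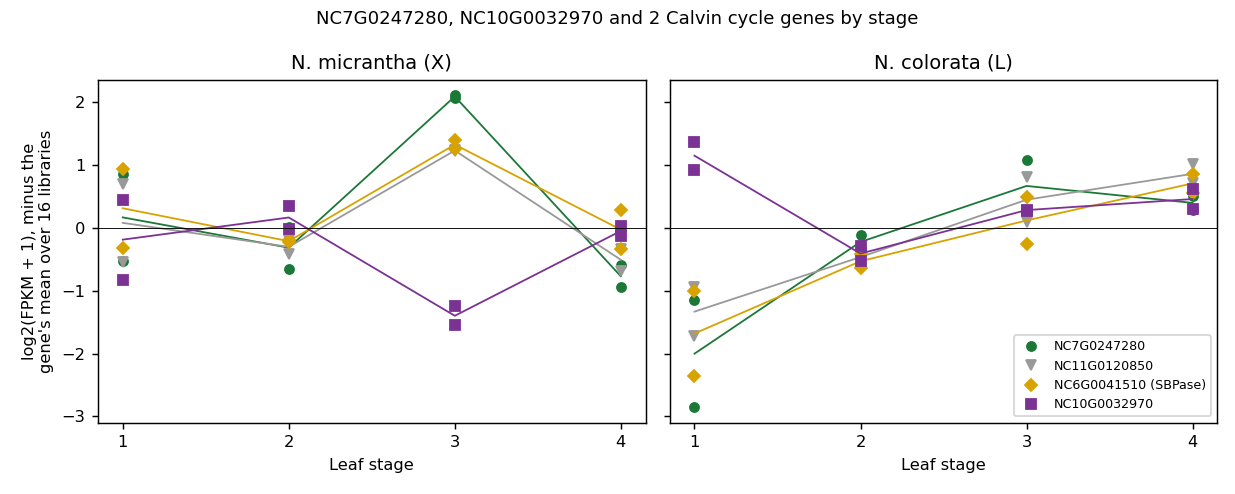
Log2(FPKM + 1) minus each gene's mean over the 16 libraries, by stage, for NC7G0247280, NC10G0032970, NC11G0120850 and the SBPase gene NC6G0041510; points are libraries and lines join group means. In the X-species NC7G0247280, NC11G0120850 and SBPase peak at stage 3, where NC10G0032970 is lowest, and in the L-species the same 3 are lowest at stage 1, where NC10G0032970 is highest.

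The study's table lists 12 genes under the reductive pentose-phosphate cycle, of which 11 were tested. The counts take only the 7 that reached the filter on low values within each species, which leaves out NC3G0206580, and are set beside the 15250 genes in all that did so. The 7 include 1 of the figure's 9 Calvin cycle genes, NC2G0054460. At stage 1, 4 of the 7 were higher and 0 lower in the X-species, with a median log2 fold change of 1.27 beside -0.17 over the 15250 genes, of which 6.47% passed as higher. Without the second X1 library, or without the second L1 library, none of the 7 passed there. At stage 2, 0 were higher and 1 lower (0 lower under median-ratio scaling), beside 4.92% of the 15250 genes passing as higher and 14.2% as lower. At stage 3, 0 passed (1 as higher under that scaling), beside 5.34% of those genes passing as higher and 17.5% as lower. At stage 4 all 7 were lower, with a median of -1.29 beside 0.07 over the 15250 genes, of which 13.6% passed as lower, and the count was the same under that scaling.

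Photorespiration, the pathway that the oxygenase reaction feeds, has 12 genes in the table, of which 10 were tested and 9 reached the filter within each species. At stage 1, 2 of the 9 were higher and 2 lower in the X-species, with a median log2 fold change of 0.09. Of the 15250 genes, 6.47% passed there as higher and 15.2% as lower. Fewer of the 9 passed as higher without the second X1 or the second L1 library, and more as lower without the second X1 library. At stage 2, 0 were higher and 3 lower (2 lower under median-ratio scaling), with a median of -0.85, beside 14.2% of the 15250 genes passing as lower. At stage 3, 0 were higher and 2 lower, beside 17.5% of those genes passing as lower. At stage 4, 2 were higher and 5 lower, with a median of -1.40, beside 11.4% of those genes passing as higher and 13.6% as lower.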

How the data were processed

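Leaf RNA of both species was sequenced at 4 stages, and 16 libraries were analysed, grouped by the sample titles. The deposited values are FPKM of 31475 genes. The submitters' processing notes name CASAVA 1.8, fastp 0.20.0, HISAT2 2.1.0, Cufflinks 2.2.1, HTSeq 0.7.2 and DESeq, and the methods of the authors name NGS QC Toolkit, Trinity, Bowtie, htseq-count, cufflinks and DESeq. Which genome or annotation the gene IDs belong to is not given in the sources used here. The methods describe 3 biological repeats, of which 2 libraries per group were analysed here, and 0 columns were left unmapped.

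Whole reads, gene lengths and library totals were recovered from the steps of the FPKM values (100.00% of 308923 values above 0 within 0.0001 reads). The replicates of each group differed by more than sampling noise, with chi-square per degree of freedom of 16.9 to 196. Values were taken as log2(FPKM + 1), and the 18160 genes that reached an FPKM of 1 in 2 or more libraries went into limma (version 3.58.1, R 4.3.3; lmFit and eBayes with a variance trend, 1 mean per group, no covariate), with Benjamini-Hochberg adjustment. A call needed both an adjusted p under 0.05 and a difference of 1 or more on the log2 scale. The methods' DESeq was not used. The main test was made on the deposited unit, and the recovered reads entered 1 alternative. The scripts were tested on simulated data. Python 3.11.15, numpy 2.4.6, pandas 2.3.3 and matplotlib 3.10.9 were used otherwise. No test was made on shares, family sums or correlations.

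Named were the 3 members, NC3G0206580, the Calvin cycle genes of the figure, genes of the lists by their extremes, and for each member the 3 genes most correlated with it. Members and lists were chosen with earlier results of these data known. As alternatives, the pseudocount was 0.1, the filter was dropped, or the test was limited to 15250 genes found in each species. Others were median-ratio scaling, a block for the replicate number, separate fits of the libraries under comparison, voom on the recovered reads, and each library left out. Those chosen after seeing the data were a crossed block and a fit with no variance trend.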

Additional observations from a re-analysis of the deposited data

Results flagged for a closer look

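For NC10G0032970 the difference between the species at stage 3 minus that at stage 2 was -2.25 on the log2 scale (SE 0.46, limma adjusted p = 0.0253). It was singled out because the species' effects at these stages differ by a test of the difference itself: both X3 libraries were below both L3 libraries, and both X2 libraries were above both L2 libraries. Over the alternatives other than leaving out a library its adjusted p was 0.0164 to 0.0594.

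For NC7G0247280 the difference between the species at stage 4 minus that at stage 1 was -3.33 (SE 1.00, limma adjusted p = 0.0237). It was singled out by the same kind of test: both X1 libraries were above both L1 libraries, and both X4 libraries were below both L4 libraries. Over the alternatives other than leaving out a library its adjusted p was 0.00564 to 0.218.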

How the results depend on the processing

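NC10G0232730, with 0 reads in the X-species, is left out of what follows. Median-ratio scaling changed no call of NC7G0247280 or NC10G0032970. It moved the median of all genes by over 0.1 in some comparisons (from -0.30 to -0.09 at stage 3, and from 0.19 to 0.04 for X4 against X3), and the share of higher calls at stage 3 was 35% with it, against 22.8% without it. Without the filter on low values the values stayed and the calls were lost for NC7G0247280 at stage 1 (2.17, adjusted p = 0.222), X3 against X2 (2.41), X4 against X3 (-2.86), L4 against L1 (2.40) and the interaction of stages 4 and 1 (-3.33), and for NC10G0032970 in L2 against L1 (-1.56, adjusted p = 0.0516). The 5 calls of NC7G0247280 were also lost in fits of only the libraries compared, as were those of NC10G0032970 at stage 1 (-1.34), X3 against X2 (-1.56) and L2 against L1 (-1.56), while the interaction of stages 4 and 3 passed there for both (1.17 for NC10G0032970, -2.59 for NC7G0247280). That interaction of NC7G0247280 also passed with voom (-2.59) and with no variance trend (-2.59), which also passed its stage 3 value (1.42). Voom lost the interaction of stages 3 and 2 of NC10G0032970 (-2.35). The cause was not tested.

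Counts of all genes moved by over 1.5 times in these cases. With only genes found in each species they were 3284, against 5079, at stage 1, 2895, against 4597, at stage 2, 3474, against 5228, at stage 3, 2585, against 4370, for the mean of the stages and 204, against 497, for the interaction of stages 3 and 2. In fits of only the libraries compared they were 0 for X2 against X1, 662 for X3 against X2, 0 for L2 against L1, and 6 and 256 for the interactions of stages 2 and 1 and of stages 3 and 2, against 294, 2082, 343, 114 and 497. No filter gave 222 for L2 against L1, pseudocount 0.1 gave 282 for the interaction of stages 3 and 2, and voom gave 46 and 95 for those of stages 2 and 1 and of stages 3 and 2.

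When single libraries were left out, the log2 fold change of NC7G0247280 was 1.32 to 3.02 at stage 1, 2.07 to 2.74 for X3 against X2, -3.03 to -2.68 for X4 against X3, 1.55 to 3.25 for L4 against L1 and -4.19 to -2.48 for the interaction of stages 4 and 1. That of NC10G0032970 was -1.97 to -0.70 at stage 1, -1.75 to -1.37 for X3 against X2, 1.20 to 1.50 for X4 against X3, -1.78 to -1.33 for L2 against L1, and 1.28 to 2.54, -2.44 to -2.06, 1.01 to 1.33 and 0.19 to 1.46 for the interactions of stages 2 and 1, 3 and 2, 4 and 3, and 4 and 1. The counts of all genes were 161 to 852 for X2 against X1, 27 to 534 for L2 against L1, 1685 to 2835 for L3 against L2, and 26 to 714, 117 to 1504 and 1694 to 3185 for the first 3 of those interactions.

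The replicate numbers were not taken as pairs of libraries. The deviations of same-numbered libraries correlated at -0.49 to 0.21, which cannot show whether libraries were paired, since each group gives a single deviation per gene. The fit with the replicate number as a block changed no call of these 2 genes and gave 5055 genes at stage 1, against 5079. Crossed numbers, chosen after seeing the data, gave 5052, 4604 and 5670 genes at stages 1, 2 and 4, and 2063 for X3 against X2 and 3982 for X4 against X1.

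With 2 libraries in a group, precision is limited by the spread between libraries and not by depth for NC7G0247280, which had at least 59392 reads in a library. For NC10G0232730 a count of 0 allows 3 reads in a library, and NC3G0206580 had at most 14 reads in an X-species library.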

Other observations

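The gene IDs numbered next to NC10G0232730 were looked at after its values were seen, with the order of numbers taken as it stands and no position known. NC10G0232710 had 0 reads in all X-species libraries and 346 to 652 reads in the L-species libraries. NC10G0232740 had 0 reads in all X-species libraries and 47 to 215 reads in the L-species libraries. NC10G0232750 had 0 reads in the X-species and at most 12 in an L-species library, and NC10G0232720 had 1 read in all in each species. NC10G0232760, in contrast, had reads in both, with 81 to 2021 in the X-species libraries and 0 to 3762 in the L-species libraries.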
